A study of Rattus norvegicus with 64 samples.

Results

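Healing of bladders reconstructed using a graft of bladder acellular matrix (BAM) that carried adipose stromal cells (ASCs) was followed here from 7 to 30 days after surgery. The members are 16 of the 64 arrays of the study, chosen by label alone: the 8 arrays labelled BAM_ADSCs_7d and the 8 labelled BAM_ADSCs_30d. The labels number the arrays of each group as biological replicates, and the paper describes them as such, with RNA taken from several bladders of each group. Both groups were male Wistar rats that had undergone hemicystectomy and received a patch of BAM, a bladder wall freed of its cells, carrying ASCs grown from the retroperitoneal fat of male Wistar rats of the same syngeneic stock. The age of the recipients is not given in the sources used here. The wall that had formed at the graft was separated from the native bladder and its total RNA was hybridised to 1-colour Agilent arrays. The 8 arrays of BAM_7d and the 8 of BAM_30d, from rats given the same operation with unseeded BAM, served for comparison. No unoperated or sham-operated bladder was among the 8 groups of the series, and the ASCs and the host were both rat cells, so that transcripts of the seeded cells and of the host cannot be told apart.

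A patch placed in the bladder wall heals as a wound does. Neutrophils arrive first, monocytes and macrophages follow, fibroblasts lay down a provisional matrix and new capillaries grow into it, while urothelium closes over the lumen and detrusor smooth muscle grows in from the margins. Mature urothelium is topped by umbrella cells, whose membrane is plated with uroplakins and which carry keratin 20. During bladder development the urothelium secretes Sonic hedgehog, and the mesenchyme beneath it answers with Ptch1 and Gli1 expression and becomes smooth muscle. The comparison of the 2 days asks which of these programmes were still running at 30 days in a seeded graft.

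Levels are given throughout as the log2 of the processed signal minus the array's own 75th percentile, so that 0 is the signal of a bright probe and a difference of 1 is a 2-fold difference in signal. A level belongs to its probe and is not compared with that of another probe. Of 30367 probes for genes, 20629 were well above background on all 8 arrays of at least 1 of the 2 groups and were tested, and they covered 11498 named genes. Differentially expressed genes (DEGs) had a fold change over 1.5 with a limma adjusted p under 0.01.

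Replicates 1 and 2 of the 30-day group stood apart. Replicate 1 had 95.6% and replicate 2 had 86.2% of gene spots well above background, against 74.1 to 77.2% in the other 6 arrays of that group and 73.8 to 77.9% in the 7-day group. Replicate 1 also had the lowest median correlation with its own group, at 0.958. All 8 arrays of 7 days lay on 1 slide and all 8 of 30 days on another, with the same scan date, so that slide and day cannot be told apart. The samples are pieces of whole bladder wall, and fewer cells of a type and less RNA per cell cannot be told apart in them. A tested probe was available for 24 of the 28 urothelial genes and 24 of the 28 smooth muscle genes listed. Over all named genes on the array it was available for 11498 of 15715, so that these counts do not by themselves show which tissue was present.

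Among the 20629 probes, 2288 were DEGs between 7 and 30 days, which is 11.1% of those tested. Of these, 1718 (8.33% of probes) were higher and 570 (2.76%) were lower at 30 days. Probes well above background on all 16 arrays made up 1520 of the rises and 540 of the falls, while 196 of the rises passed the filter only through the 30-day arrays and 30 of the falls only through the 7-day arrays. The median change of the rises was 0.88 and that of the falls was -0.78 on the log2 scale. The share of rises varied with the scaling. Rises were 75.1% of DEGs, 68.4% with the percentile taken over detected probes and 69.0% after normexp background correction. In the deposited value table, where 3 columns of the 7-day group hold the signal error in place of the signal, rises were 69.8%. They were only 48.4% after quantile normalization, 35.9% with arrays centred on their median and 54.8% when each change was taken relative to the median change of all probes, which was 0.10. The 5158 dimmest probes had a median change of 0.32, which was 0.11 without replicates 1 and 2 of the 30-day group, and the 5157 brightest had 0.04 in both cases. Without those replicates there were 2099 DEGs, 1391 higher and 708 lower.

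**Figure D1:**
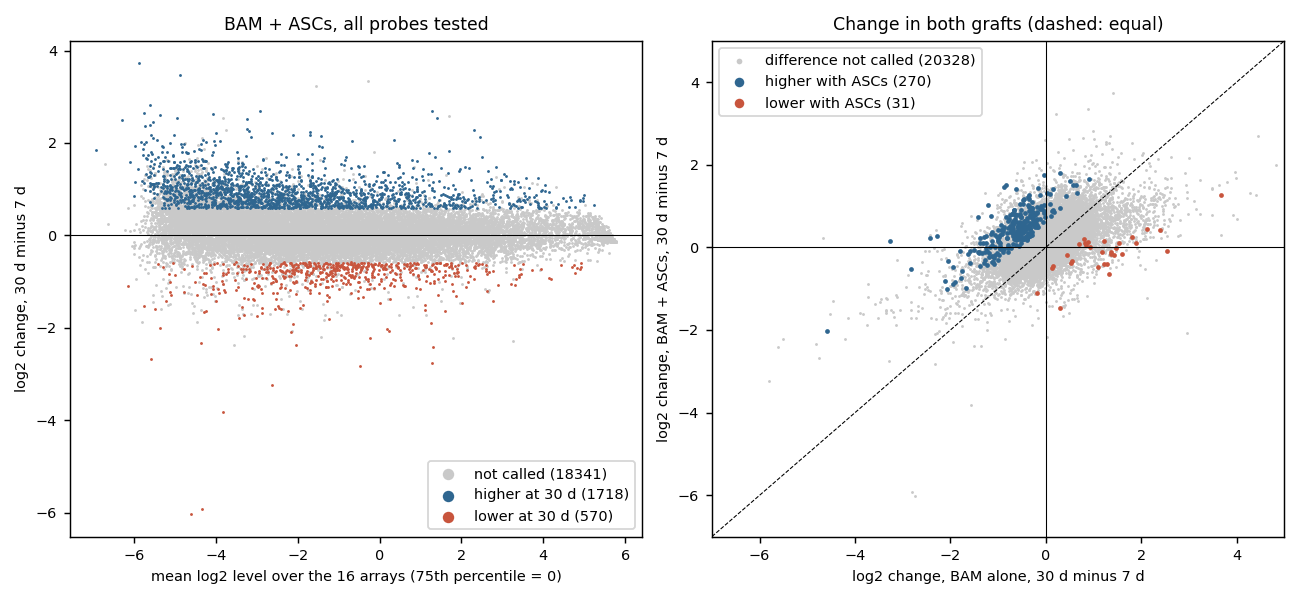
Left, the log2 change of every tested probe from 7 to 30 days with ASC-seeded BAM (y axis) against its mean log2 level over the 16 arrays (x axis), with 1718 DEGs higher at 30 days in blue and 570 lower in red. Right, the same change (y axis) against the change in bladders reconstructed using BAM alone (x axis), where colours mark the 270 probes whose change was higher and the 31 whose change was lower with ASCs by the test of the difference, and the dashed line marks equal change.

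Lists of genes were read with 1 probe per gene, the brightest. On that basis 9.12% of the 11498 named genes were DEGs, with 5.77% higher and 3.35% lower at 30 days, and their median change was 0.06. The arrays of the 2 days did not overlap for 7.88% of probes that were higher and 3.41% that were lower at 30 days, or 5.8% and 4.18% of named genes. These are the shares against which the counts of each list below are set.

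Part of the urothelial list rose. Of 24 genes tested, 8 were higher at 30 days (against 5.77% of all named genes), none was lower, and 23 of 24 had a change above 0. Krt20 and Shh, 2 of the 8, passed the filter on dim probes only through the 30-day arrays (at 7 days they were well above background on 7 and 3 arrays), a route into the test that favours a rise, so that the 8 cannot be read against the background share as they stand. The median change of the 24 genes was 0.64, and it stayed positive under every scaling tried (0.40 with arrays centred on their median, where 4 genes were higher, and 5 were after quantile normalization). The members that rose included genes of the luminal layer. Upk2, a uroplakin of the umbrella cell plaque, ranged from -1.43 to 2.08 (median 0.96) over the 8 arrays of 7 days and from 1.82 to 3.45 (median 2.55) over the 8 of 30 days. Its change was 1.83 ± 0.39 (log2, SE), or 3.55-fold, with an adjusted p of 0.00208, and only the lowest 30-day array lay within the 7-day range. The call was lost when the spread was taken from 32 or all 64 arrays and in the 2-way analysis of variance. Krt20, the keratin of umbrella cells, ranged from -5.67 to -2.53 (median -4.61) at 7 days and from -4.43 to -0.21 (median -1.64) at 30 days. The rise of Krt20 was 5.72-fold (adjusted p = 0.00422), but 2 arrays of 30 days remained within the range of the 7-day group. Without replicates 1 and 2 its change was 2.20 with an adjusted p of 0.0138, and the call was lost.

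The other urothelial genes that rose were Cldn4, a tight junction claudin (1.20, adjusted p = 0.000191), Perp, a desmosome protein (1.16, adjusted p = 0.000182), Foxa1, an endodermal transcription factor (1.01, adjusted p = 0.000422), Aqp3, a water channel of the urothelium (0.99, adjusted p = 0.00484), Krt18, a simple epithelial keratin (0.75, adjusted p = 0.00628), and Shh, described with its pathway below. Cldn4 lay between 1.68 and 2.75 at 7 days and between 2.94 and 4.06 at 30 days, without overlap. Basal keratins did not pass the test. Krt5 had a change of 0.93 ± 0.47 (adjusted p = 0.127) and Krt14 of 0.11 ± 0.60 (adjusted p = 0.895), and the 30-day arrays of Krt14 spread from 0.01 to 4.92, beyond both ends of the 7-day range of 1.46 to 3.73. Further epithelial genes were among the 8 largest rises of named genes that were measured on all 16 arrays and did not overlap between the days. Aldh3a1, an aldehyde dehydrogenase of surface epithelia, ranged from -4.37 to -2.12 (median -3.25) at 7 days and from -2.08 to -0.22 (median -0.98) at 30 days, a rise of 4.48-fold (adjusted p = 0.000145). Fat2, a large protocadherin of stratified epithelia, rose 4.16-fold by 1 of its 2 probes (adjusted p = 0.000535). Adh7, a retinol-oxidising dehydrogenase of epithelia, was the member of the retinoid and xenobiotic list that rose, 1 of 25 tested (1.41, adjusted p = 0.00479). Its call was lost without replicates 1 and 2 (1.24, adjusted p = 0.0152). Without both replicates, 5 of the 24 urothelial genes were called in place of 8.

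**Figure D2:**
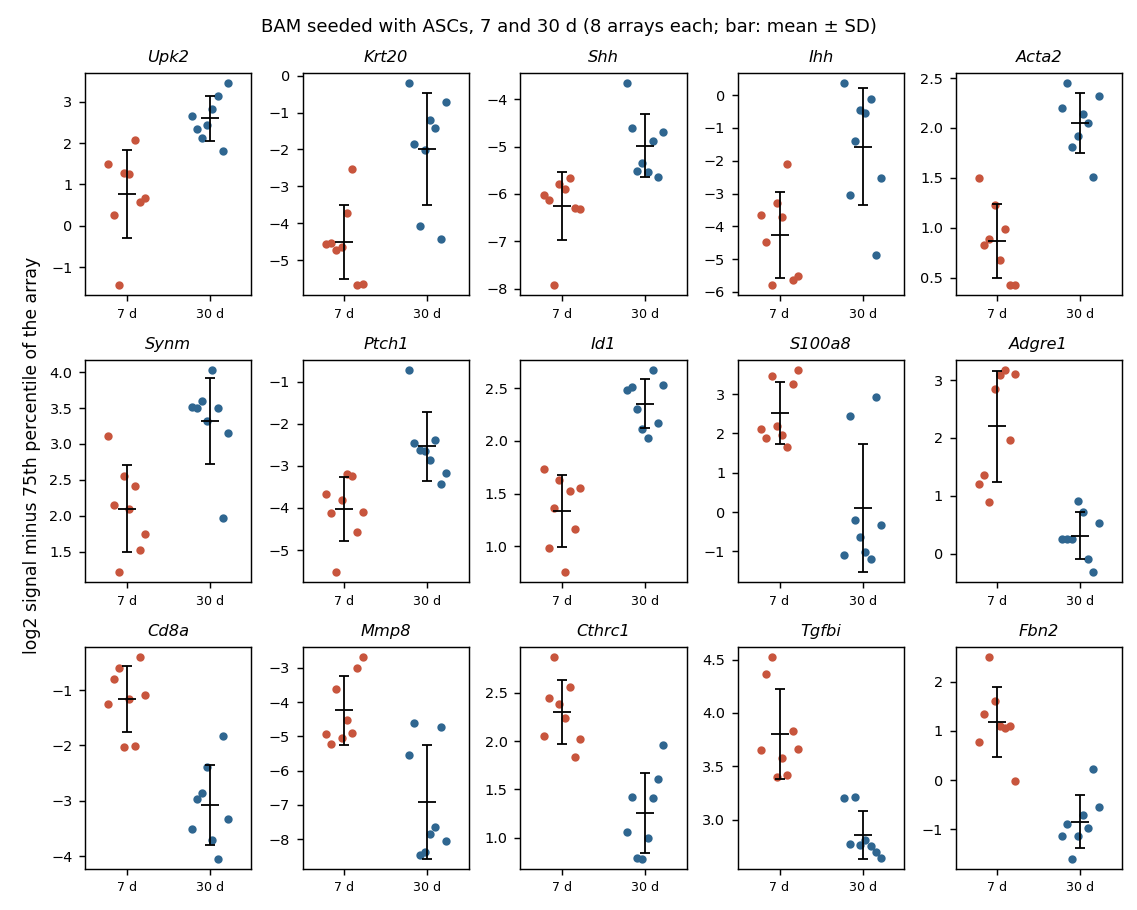
Level of 15 genes (y axis, log2 signal relative to the array's 75th percentile) in each of the 8 arrays at 7 days and the 8 at 30 days after reconstruction using BAM seeded with ASCs, with bars for mean ± SD. The 30-day arrays lie above all 7-day arrays for Shh, Acta2 and Id1 and below all of them for Tgfbi, while the other panels show overlapping arrays, as for S100a8, where 2 arrays of 30 days lie within the 7-day range.

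Part of the smooth muscle list rose as well. Of 24 tested, 5 rose, none fell, and 20 had a change above 0, with a median change of 0.60 that stayed positive under every scaling tried (0.35 with arrays centred on their median, where 2 were higher). Acta2, smooth muscle alpha-actin, which is also made by myofibroblasts, ranged from 0.43 to 1.5 (median 0.86) at 7 days and from 1.51 to 2.45 (median 2.1) at 30 days. The groups did not overlap, and the rise was 2.27-fold (1.18 ± 0.16, adjusted p = 5.63e-05). Myocd, the coactivator that drives the smooth muscle programme, ranged from -4.41 to -3.23 (median -3.73) at 7 days and from -3.80 to -2.23 (median -2.67) at 30 days (0.99 ± 0.22, adjusted p = 0.0021). Lmod1, a leiomodin that nucleates actin filaments in smooth muscle, rose by 0.84 (adjusted p = 0.00605), and Casq2, a calcium store protein of the sarcoplasmic reticulum, by 1.16 (adjusted p = 0.000208). Synm, an intermediate filament protein of muscle, rose by 1.22 (adjusted p = 0.00352) by 1 of its 2 probes, and its call was lost without replicates 1 and 2 (adjusted p = 0.0118).

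The late contractile genes did not pass the test. Myh11, the smooth muscle myosin heavy chain, ranged from 3.00 to 4.71 (median 3.97) at 7 days and from 3.50 to 4.93 (median 4.69) at 30 days, with a change of 0.65 ± 0.25 (adjusted p = 0.0513). Des, desmin, had a change of 0.46 ± 0.20 (adjusted p = 0.0781). Actg2, the gamma-actin of visceral muscle, had a change of 0.17 ± 0.17 (adjusted p = 0.429), but its probe was saturated on 2 arrays of 7 days and 7 arrays of 30 days, so that its change is not well measured. Among the 8 largest rises defined above, Kcnma1, the pore subunit of the BK potassium channel that damps detrusor contraction, lay between -3.13 and -2.19 at 7 days and between -1.06 and -0.32 at 30 days. That was a rise of 3.38-fold (1.76 ± 0.12, adjusted p = 7.18e-08), shared by 2 of its 3 probes. Cavin1, a coat protein of caveolae, rose 4.06-fold (adjusted p = 6.02e-05), with replicate 1 of the 30-day group far above its other arrays. Without replicates 1 and 2, 3 of the 24 smooth muscle genes were called in place of 5. Of 13 skeletal muscle genes tested, none rose and Tnnt1, a slow troponin T, fell by 0.89 (adjusted p = 0.00724), a call lost when single arrays were left out.

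Many smooth muscle genes are driven by serum response factor and myocardin through the CArG box, a run of A and T bases between a pair of C and a pair of G. The Acta2 promoter is shown because Acta2 and Myocd rose together. It is the 250 bases before the transcription start in RefSeq on rat assembly GRCr8, chr1:241172504-241172753, minus strand, and capitals mark runs that match the CArG box with a single G or C among the A and T bases:
Acta2: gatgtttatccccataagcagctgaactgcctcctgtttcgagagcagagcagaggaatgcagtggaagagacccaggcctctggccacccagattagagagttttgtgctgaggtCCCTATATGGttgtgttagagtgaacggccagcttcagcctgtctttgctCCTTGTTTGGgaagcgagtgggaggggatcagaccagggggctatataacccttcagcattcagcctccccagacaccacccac
The marked runs begin at positions -134 and -84 from the annotated start. A promoter was given for 19 of the 24 smooth muscle genes tested. Acta2 was the only one of the 19 with such a match (5.26%), against 8.08% of 33469 rat promoters of the same length, and none of the 19 held the exact box, against 1.5% of all. The pattern reads the same on both strands. A match in these letters is a description and not a site of binding, and its absence says only that the letters are not in this window.

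Genes of nerve and Schwann cells gave a mixed picture, with 2 of 11 tested higher and 1 lower. Mbp, a myelin protein, rose by 0.65 (adjusted p = 0.00316), with both of its probes called, but the call was lost in the fits of 32 and of 64 arrays and with arrays centred on their median. L1cam, an adhesion molecule of axons and Schwann cells, rose by 0.83 (adjusted p = 0.00622), a call lost after normexp and when any of 6 single arrays was left out. Ncam1, which is made by nerve, immature Schwann cells and regenerating muscle, fell 2.24-fold (adjusted p = 0.000331).

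Part of the Hedgehog list rose. Of 13 Hedgehog genes tested, 4 were higher and none lower. Shh, 1 of the 4, passed the filter on dim probes only through the 30-day arrays, a route that favours a rise. The 4 therefore cannot be read against the background share as they stand. The median change was 0.35, but it was -0.07 after quantile normalization and 0.09 without replicates 1 and 2 of the 30-day group, where 2 genes were higher and 1 was lower. Shh, the ligand secreted by urothelium, lay between -7.92 and -5.67 (median -6.08) at 7 days, where it was well above background on 3 of 8 arrays, and between -5.63 and -3.66 (median -5.11) at 30 days, where it was so on all 8. The groups did not overlap, and the change was 2.42-fold (1.28 ± 0.32, adjusted p = 0.00607). Without replicates 1 and 2 the change was 0.99 (adjusted p = 0.0179), and the call was lost. Ihh, Indian hedgehog, rose 6.49-fold (adjusted p = 0.00902), the largest rise of the list, with 30-day arrays from -4.88 to 0.36 against -5.79 to -2.10 at 7 days. Its call was lost without replicates 1 and 2 (adjusted p = 0.015) and when any of 13 single arrays was left out. Ptch1, the receptor that Hedgehog signalling itself induces, ranged from -5.52 to -3.20 (median -3.95) at 7 days and from -3.43 to -0.73 (median -2.63) at 30 days, a rise of 2.80-fold (adjusted p = 0.0052). That call was lost without replicate 2, 7 or 8 of the 7-day group or replicate 6 of the 30-day group. Over all single arrays left out, the change lay between 1.23 and 1.61. Gli1, the other direct target, had a change of 0.40 ± 0.27 (adjusted p = 0.252). Zic2, a zinc finger factor related to the Gli family, rose by 0.96 (adjusted p = 0.000169), and its groups did not overlap.

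Part of the Bmp and TGF-beta list rose as well. Of 27 Bmp and TGF-beta genes tested, 7 were higher and none lower, with a median change of 0.25 (0.01 with arrays centred on their median, where 2 were higher and 1 lower, and positive under the other scalings). Id1 and Id3 are inhibitors of basic helix-loop-helix factors and immediate targets of Bmp receptors. Id1 ranged from 0.76 to 1.73 (median 1.44) at 7 days and from 2.03 to 2.67 (median 2.39) at 30 days, a rise of 2.02-fold without overlap (1.01 ± 0.14, adjusted p = 6.33e-05). Id3 ranged from -3.88 to -1.84 (median -3.15) at 7 days and from -1.86 to -1.38 (median -1.57) at 30 days, a rise of 2.61-fold (adjusted p = 0.000233). The ligand genes Bmp2 (0.83, adjusted p = 0.000549), Bmp7 (0.74, adjusted p = 0.00263) and Bmp5 (0.92, adjusted p = 0.00954) rose too, Bmp5 with a call that most alternatives removed. Tgfbr2, a TGF-beta receptor, rose by 0.59 (adjusted p = 0.000414) and Ltbp2, a matrix protein related to the latent TGF-beta binding proteins, by 0.81 (adjusted p = 0.00573). Bmp4, whose change was 0.47 ± 0.18, had an adjusted p of 0.0478 and was not called.

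Of 23 Wnt ligands and antagonists, 4 rose and none fell, with a median change of 0.40 that stayed positive under every scaling tried (0.13 after quantile normalization, where 3 were higher and 1 lower, and 0.15 with arrays centred on their median, where 1 was higher). Wnt7b, a ligand made by urothelium and other epithelia, lay between -5.87 and -4.56 (median -5.0) at 7 days and between -3.48 and -2.30 (median -3.21) at 30 days. It rose 3.86-fold (1.95 ± 0.21, adjusted p = 4.61e-06), one of the 8 largest rises, which were chosen among genes without overlap between the days. Wnt7a, a close relative, rose by 0.63 (adjusted p = 0.00466). The secreted antagonists Sfrp4 (1.19, adjusted p = 0.00706) and Sfrp2 (0.64, adjusted p = 0.00612) also rose, both with calls lost when single arrays were left out. Wnt5a had a change of 0.26 ± 0.20 (adjusted p = 0.327). Of 29 growth factors and binding proteins, 4 rose and 1 fell (median 0.24, but -0.05 after quantile normalization, and none was higher with arrays centred on their median). The rises included Igfbp2, Igfbp5 and Igfbp7, which bind insulin-like growth factors. Igfbp2 was called by 1 of its 2 probes, and its call was lost in the fit of 32 arrays. The call of Igfbp5 was lost without replicates 1 and 2 (0.88, adjusted p = 0.0121) and when any of 11 single arrays was left out. Igfbp7 rose from between 0.24 and 0.83 to between 0.98 and 1.70 (adjusted p = 5.58e-05). Igf1 itself had a change of -0.19 ± 0.13 (adjusted p = 0.286). Pgf, the placental growth factor that acts on vessels, fell by 0.72 (adjusted p = 0.000468).

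**Figure D3:**
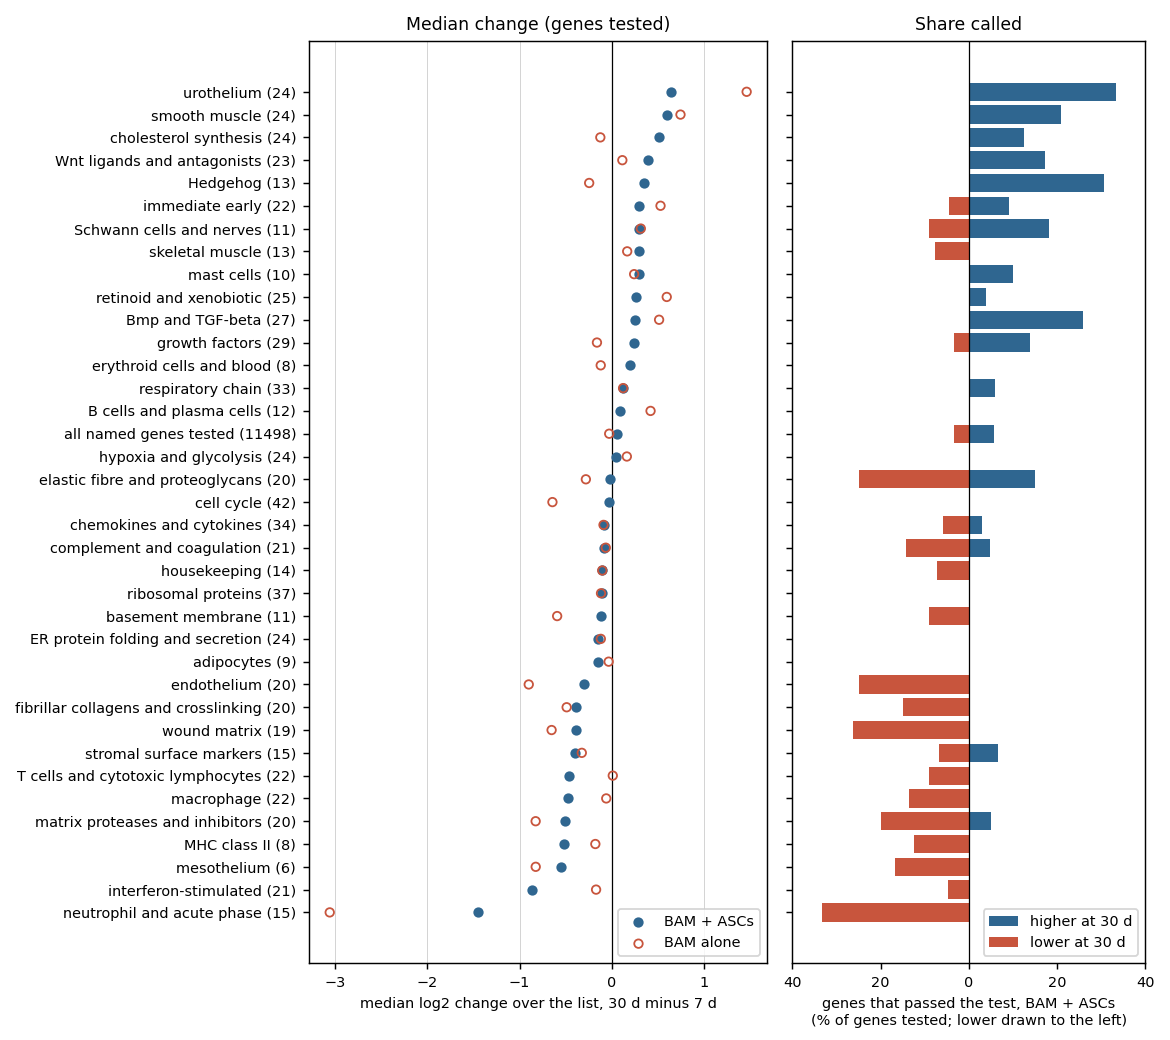
Left, median log2 change from 7 to 30 days (x axis) over each list of genes (y axis, genes tested in brackets), with filled points for BAM seeded with ASCs and open points for BAM alone. Right, the share of each list that passed the test with ASC-seeded BAM, with genes higher at 30 days drawn to the right and lower to the left. Urothelium and smooth muscle stand at the top of the seeded medians (0.64 and 0.60) and the neutrophil and acute phase list at the bottom (-1.46).

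Part of the neutrophil list fell, and its median change was the largest of the lists. Of 15 neutrophil and acute phase genes tested, 5 were lower at 30 days (against 3.35% of all named genes) and none was higher, with a median change of -1.46 that was negative under every scaling tried. S100a8, a calcium-binding protein that fills the cytosol of neutrophils, ranged from 1.65 to 3.61 (median 2.15) at 7 days and from -1.20 to 2.92 (median -0.47) at 30 days. Of the 30-day arrays, 6 lay below the whole 7-day group and 2 lay within it. Its fall was 5.30-fold (-2.41 ± 0.60, adjusted p = 0.00533), and the call was lost when any of 8 single arrays was left out. Over all single arrays left out, the change lay between -2.81 and -2.22. Il1r2, the interleukin 1 decoy receptor, fell 4.63-fold (adjusted p = 0.00346) and Trem1, an amplifying receptor of myeloid cells, 2.99-fold (adjusted p = 0.00116). Camp, the cathelicidin of neutrophil granules, ranged from -2.34 to -0.78 (median -2.07) at 7 days and from -3.71 to -2.83 (median -3.20) at 30 days. Its fall was 2.58-fold (adjusted p = 0.000144), one of the 8 largest falls, which were chosen among genes without overlap between the days. Ncf1, a subunit of the phagocyte oxidase, fell by 0.80 (adjusted p = 0.00258). Mmp8, the collagenase of neutrophils, fell 6.36-fold (adjusted p = 0.00421), although it was well above background on only 3 arrays of 30 days, so the size of its fall rests on dim readings. Without replicates 1 and 2, 8 of the 15 genes were lower.

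The acute phase members did not follow. Lcn2, lipocalin 2, ranged from -4.80 to 1.40 (median -2.32) at 7 days and from -5.90 to 1.47 (median -2.21) at 30 days, with a change of 0.22 ± 1.00 (adjusted p = 0.878). Hp, haptoglobin, had a change of 0.15 ± 0.53 (adjusted p = 0.842). Both varied more between rats of the same day than between the days, and the signs of both turned when arrays were centred on their median.

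The falls of greatest size in the whole comparison were those of alpha-defensins, peptides of neutrophil granules, which are named here after their values were seen. Np4 ranged from -4.05 to 0.57 (median -1.30) at 7 days, well above background on all 8 arrays, and from -8.30 to -5.59 (median -7.82) at 30 days, where only 1 array was well above background. Its fitted change was -6.03 (adjusted p = 3.24e-06). Defa5 ranged from -4.08 to 0.72 at 7 days and from -8.35 to -4.20 at 30 days, with a fitted change of -5.93 (adjusted p = 2.04e-05). RatNP-3b fell by 3.83 (adjusted p = 0.000119). At 30 days Defa5 was well above background on 1 array and RatNP-3b on 5. All 3 genes thus passed the filter on dim probes only through the 7-day arrays, a route that favours a fall. They were also picked by their values, so that their adjusted p-values cannot be taken at face value. The fitted sizes depend on signal near the background, above all for Np4 and Defa5. Alpha-defensin genes are close copies of one another, and the probes may read more than 1 of them.

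Of 22 macrophage genes tested, 3 were lower and none higher, with a median change of -0.47, negative under every scaling tried, and 6 were lower with arrays centred on their median. Adgre1, the F4/80 antigen, ranged from 0.89 to 3.17 (median 2.40) at 7 days and from -0.32 to 0.91 (median 0.25) at 30 days, a fall of 3.70-fold (adjusted p = 0.000603), and only 1 array of each day lay within the range of the other. Mrc1, the mannose receptor, fell 1.85-fold without overlap (adjusted p = 0.000649). Aif1, an actin-binding protein of macrophages, fell by 0.74 (adjusted p = 0.00473), a call lost without replicates 1 and 2 (adjusted p = 0.0143). Cd68, a lysosomal protein of macrophages, ranged from 3.47 to 4.20 at 7 days and from 2.96 to 4.84 at 30 days, with a change of 0.17 ± 0.26 (adjusted p = 0.635) that was -0.08 with arrays centred on their median.

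Several of the 8 largest falls of named genes, chosen as the rises were, belong to myeloid cells. Apoc1, an apolipoprotein secreted by macrophages and liver, ranged from 0.05 to 1.65 (median 1.03) at 7 days and from -2.55 to -1.19 (median -1.88) at 30 days. It fell 7.05-fold (-2.82 ± 0.25, adjusted p = 8.73e-07), and the choice of the 8 required that the days not overlap. Siglec5, a sialic acid receptor of myeloid cells, fell 5.20-fold (adjusted p = 8.24e-06) and Lilrc2, a leukocyte immunoglobulin-like receptor, 3.34-fold (adjusted p = 0.000217). Slc7a7, a transporter of cationic amino acids that is high in macrophages, fell 2.60-fold (adjusted p = 1.02e-06). Pltp, the phospholipid transfer protein, was not among the 8 and fell 2.77-fold (adjusted p = 0.000667).

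T cell genes were lower in part. Of 22 tested, 2 fell and none rose, with a median change of -0.46 that was negative under every scaling tried. Both were chains of the CD8 coreceptor of cytotoxic T cells. Cd8a ranged from -2.03 to -0.40 (median -1.13) at 7 days and from -4.04 to -1.83 (median -3.15) at 30 days, a fall of 3.77-fold (adjusted p = 0.000245), and 7 of the 8 arrays of 30 days lay below all of those of 7 days. Cd8b fell 2.13-fold (adjusted p = 0.00162). Cd3e, a chain of the receptor complex of all T cells, had a change of -0.42 ± 0.36 (adjusted p = 0.37). B cell and plasma cell genes gave no call among 12 tested. One of 10 mast cell genes, Gata2, rose (0.80, adjusted p = 0.00873), a call lost without replicates 1 and 2 and when most single arrays were left out. Cxcl13, the chemokine that attracts B cells, ranged from -0.68 to 1.48 at 7 days and from -0.05 to 3.49 at 30 days (1.19 ± 0.51, adjusted p = 0.0785).

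Antigen presentation and interferon genes were mostly below their 7-day level without passing the test. RT1-DMa, a chaperone that loads MHC class II molecules, fell 2.19-fold without overlap (adjusted p = 0.000222), 1 of 8 class II genes tested, and Cd74, the invariant chain, had a change of -0.54 ± 0.21 (adjusted p = 0.0575). Of 21 interferon-stimulated genes, 20 had a change below 0 and the median change was -0.86, negative under every scaling tried, but only Psmb8, a subunit of the immunoproteasome, was called (-0.77, adjusted p = 0.00251). Isg15, the ubiquitin-like protein of the interferon response, ranged from 0.27 to 3.95 (median 1.78) at 7 days and from -0.97 to 2.85 (median -0.23) at 30 days, with a change of -1.73 ± 0.60 (adjusted p = 0.0321). The median level of the interferon list ran from 0.85 to 2.52 over the 7-day arrays and from -0.55 to 2.43 over the 30-day arrays, so that the days overlapped.

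Of 34 chemokines and cytokines, 1 was higher and 2 were lower, and without replicates 1 and 2 the count was 1 and 0. Cxcl2, a neutrophil attractant, fell 6.76-fold (adjusted p = 0.00661), with a call lost without replicates 1 and 2 (adjusted p = 0.0103) and when any of 9 single arrays was left out. Il18, an inflammasome cytokine, fell by 0.89 (adjusted p = 0.00733), likewise lost when single arrays were left out. Il11, a cytokine of stromal cells, rose from between -3.48 and -2.91 to between -2.25 and -1.43 (1.09 ± 0.10, adjusted p = 1.70e-06). Ccl2, the monocyte attractant, ranged from 0.50 to 2.13 at 7 days and from 0.43 to 2.11 at 30 days, and its change of 0.04 ± 0.25 (adjusted p = 0.92) turned sign with the scaling. Of 21 complement and coagulation genes, 3 fell and 1 rose: Tfpi2, a protease inhibitor, by 1.41 (adjusted p = 0.00265), Cfp, properdin, by 0.99 (adjusted p = 0.000546) and C5ar1, the C5a receptor, by 0.80 (adjusted p = 0.00669), while F13a1, a transglutaminase subunit of tissue macrophages and plasma, rose by 1.06 (adjusted p = 0.00828). The calls of C5ar1 and F13a1 were lost without replicates 1 and 2. Tfpi2 passed the filter on dim probes only through the 7-day arrays, a route that favours a fall, which limits the count of falls in this list. C3 had a change of -1.16 ± 0.50 (adjusted p = 0.0778).

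Part of the wound matrix list fell. Of 19 tested, 5 were lower and none higher, with a median change of -0.39, negative under every scaling tried. Cthrc1, a secreted glycoprotein of activated fibroblasts, ranged from 1.84 to 2.87 (median 2.32) at 7 days and from 0.78 to 1.96 (median 1.24) at 30 days, a fall of 2.07-fold (-1.05 ± 0.18, adjusted p = 0.000374). Tgfbi, a TGF-beta-induced adhesion protein, ranged from 3.40 to 4.52 (median 3.66) at 7 days and from 2.64 to 3.21 (median 2.77) at 30 days, a fall of 1.93-fold without overlap (adjusted p = 0.000355). Ccn4, a matricellular target of Wnt signalling, fell by 0.90 (adjusted p = 0.00285), Fap, a surface protease of reactive fibroblasts, by 0.81 (adjusted p = 0.00208), and Plaur, the urokinase receptor, by 0.69 (adjusted p = 0.00638). Tnc, tenascin C, had a change of -0.64 ± 0.22 (adjusted p = 0.0334) and was not called. Spp1, osteopontin, had a change of -0.31 ± 0.28 (adjusted p = 0.408).

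Fibrillar collagens and crosslinking enzymes were lower in 3 of 20 genes tested and higher in none, and 19 of 20 had a change below 0. Their median change was -0.39, and 6 were lower after quantile normalization and 8 with arrays centred on their median. Col5a1, a minor fibrillar collagen that starts fibril assembly, ranged from 1.82 to 2.88 (median 1.97) at 7 days and from 0.83 to 1.54 (median 1.06) at 30 days, a fall of 1.99-fold without overlap (adjusted p = 0.000113). Loxl1, a lysyl oxidase, fell 1.62-fold (adjusted p = 0.000228) and Plod1, a lysyl hydroxylase, 1.51-fold (adjusted p = 3.69e-05), close to the fold threshold and lost when any of 5 single arrays was left out. The probes of Col1a1 and Col3a1, the main collagens of the wall, were saturated on all 16 arrays, and their changes cannot be read.

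The other matrix genes split. Of 20 genes of elastic fibres and proteoglycans, 5 fell and 3 rose. The falls were led by Fbn2, a fibrillin of developing and healing tissue, from between -0.03 and 2.5 (median 1.1) to between -1.60 and 0.24 (median -0.94), or 4.09-fold (-2.03 ± 0.30, adjusted p = 0.000101). Vcan, versican, fell 2.15-fold (adjusted p = 0.00281) and Emilin1, an elastic fibre glycoprotein, 2.04-fold (adjusted p = 2.79e-05), each by 1 of its 2 probes, and Lum, lumican, and Mfap4 also fell (by 0.82 and 0.60). Mfap5, a microfibril protein (0.79, adjusted p = 0.0033), Prelp, a leucine-rich proteoglycan (0.76, adjusted p = 9.51e-05), and Fbln1, a fibulin (0.69, adjusted p = 0.000474), rose. With arrays centred on their median the 3 rises were no longer called. Eln, elastin, had a change of 0.27 ± 0.23 (adjusted p = 0.368), and Dcn, decorin, of 0.13 ± 0.09 (adjusted p = 0.248), the latter below 0 with arrays centred on their median.

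Of 20 matrix proteases and inhibitors, 4 fell and 1 rose, with a median change of -0.50. Mmp8, described above and 1 of the 4, passed the filter on dim probes only through the 7-day arrays. That route favours a fall, so that the 4 cannot be read against the background share as they stand. Mmp14, a collagenase of the cell membrane, lay between 4.78 and 5.46 at 7 days and between 3.98 and 4.66 at 30 days (-0.68 ± 0.12, adjusted p = 0.000541). Adamts12 fell 2.00-fold (adjusted p = 0.00299) and Mmp23 by 0.68 (adjusted p = 0.000352), while Timp3, a protease inhibitor bound to matrix, rose 1.72-fold (adjusted p = 0.00268). The call of Timp3 was lost after normexp, after quantile normalization and with arrays centred on their median. Mmp9, Mmp13 and Timp1 had changes of -0.86 ± 0.28, -0.66 ± 0.47 and -0.05 ± 0.19, none of them called, and that of Timp1 was 0.06 without replicates 1 and 2. Nid2, a basement membrane nidogen, was the 1 of 11 basement membrane genes that fell (1.51-fold, adjusted p = 0.00184), by 1 of its 2 probes. Its change was under 1.5-fold, and the call lost, without replicates 1 and 2 and when any of 4 single arrays was left out. Cpxm1, a secreted carboxypeptidase-like protein, and Lrrc17, a secreted leucine-rich repeat protein, were among the 8 largest falls (2.59-fold and 2.99-fold, adjusted p = 5.28e-05 and 0.000133).

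Endothelial genes fell in 5 of 20 tested and rose in none, with a median change of -0.30 that was negative under every scaling tried. Sox18, a transcription factor of new vessels and lymphatics, ranged from 0.10 to 0.94 (median 0.32) at 7 days and from -1.21 to -0.31 (median -0.73) at 30 days, a fall of 2.21-fold without overlap (adjusted p = 2.16e-05). Kdr, the main VEGF receptor, fell by 0.68 (adjusted p = 0.00453), Aplnr, the apelin receptor of sprouting endothelium, by 0.88 (adjusted p = 0.000518), Tie1, an endothelial receptor kinase, by 0.70 (adjusted p = 0.000827) and Emcn, a sialomucin of veins and capillaries, by 0.70 (adjusted p = 0.000102). Prnd, a prion-like protein made in growing endothelium, was among the 8 largest falls, at 3.31-fold (adjusted p = 6.48e-06). Pecam1, an adhesion molecule on all endothelium, had a change of -0.31 ± 0.09 (adjusted p = 0.0118), and Vwf, of -0.08 (adjusted p = 0.686).

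Proliferation genes did not pass the test in either direction. None of 42 cell cycle genes was called, their median change was -0.03, and 17 of 42 lay above 0. Mki67, an antigen of cycling cells, ranged from 0.06 to 1.02 at 7 days and from -0.07 to 1.13 at 30 days (-0.20 ± 0.18, adjusted p = 0.42), and Cdk1, the mitotic kinase, had a change of -0.37 ± 0.28 (adjusted p = 0.315). The median level of the list ran from -2.10 to -1.18 at 7 days and from -2.30 to -0.94 at 30 days.

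**Figure D4:**
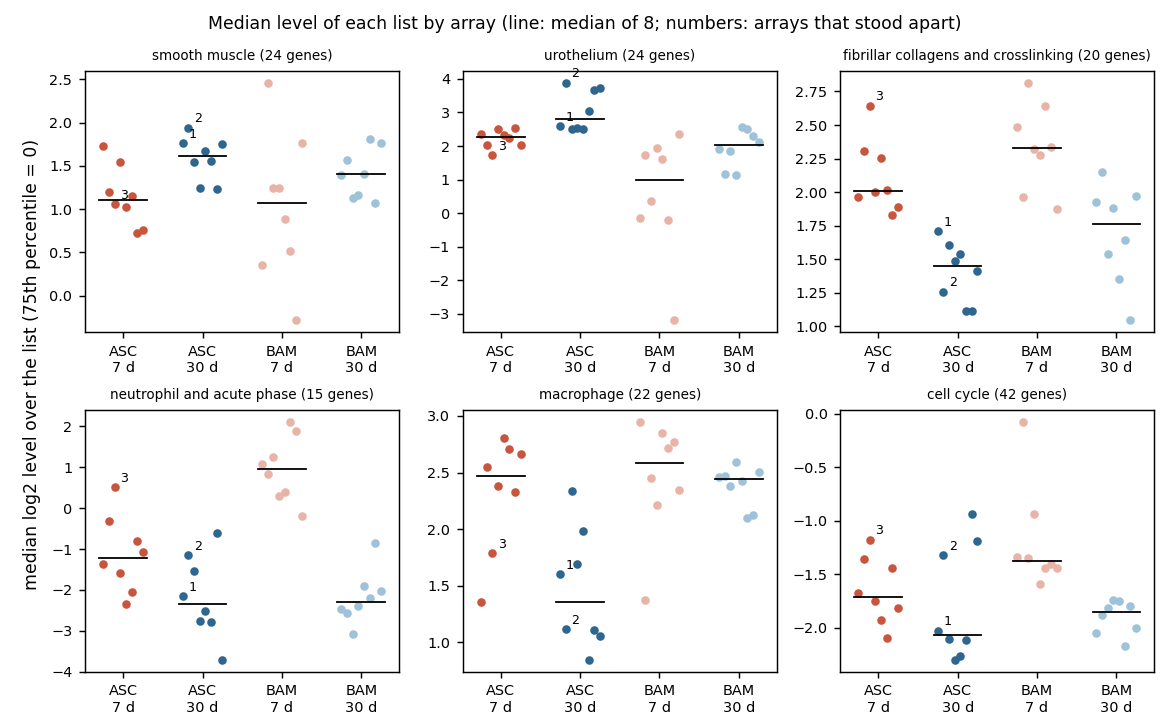
Median log2 level over the genes of 6 lists (y axis, 75th percentile of the array = 0) in each array of the 4 groups, with a line at the median of the 8 arrays of a group. The urothelial list ran from 1.72 to 2.52 at 7 days and from 2.51 to 3.89 at 30 days in grafts with ASCs, and numbers mark replicates 1 and 2 of the 30-day group and replicate 3 of the 7-day group.

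A few cholesterol genes rose. Of 24 genes of cholesterol synthesis and uptake, 3 were higher, none was lower and 20 had a change above 0, with a median change of 0.51, positive under every scaling tried. Cyp51, an enzyme of cholesterol synthesis, rose by 0.91 (adjusted p = 0.0099), close to the threshold, and 9 of 20 alternatives removed its call. Of 33 respiratory chain subunits, Cox5a (0.69, adjusted p = 6.16e-05) and Sdhc (0.59, adjusted p = 0.000357) rose, and neither was called after quantile normalization. The call of Sdhc was also lost when any of 9 single arrays was left out. No gene was called among 24 of hypoxia and glycolysis, 37 ribosomal proteins, 24 of ER protein folding, 9 of adipocytes and 8 of erythroid cells. Ldha had a change of 0.19, Hspa5 of -0.13 and Adipoq of -0.11, and the 30-day arrays of Adipoq, the fat cell hormone, spread from -6.21 to 2.21.

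Among 22 immediate early genes, Zfp36, which destabilises inflammatory mRNAs, rose 2.62-fold (adjusted p = 0.000237) and Dusp1, a phosphatase of MAP kinases, 2.00-fold (adjusted p = 0.00304), while Fosb fell 1.65-fold (adjusted p = 0.000923). The call of Dusp1 was lost in the fits of 32 and of 64 arrays and with arrays centred on their median. Fos had a change of 0.09 ± 0.26 (adjusted p = 0.815). Of 15 stromal surface markers, which include those used to define ASCs, Cd34 rose by 0.80 (adjusted p = 0.000559) and Nt5e, the CD73 ectonucleotidase, fell by 0.69 (adjusted p = 0.00218). Both calls were lost after normexp and after quantile normalization, and that of Cd34 also with arrays centred on their median. Msln, mesothelin, was the 1 of 6 mesothelial genes that fell (2.18-fold, adjusted p = 0.000647). Of 14 housekeeping genes, Tfrc, the transferrin receptor, fell by 1.05 (adjusted p = 0.00769), by 1 of its 2 probes, a call lost when any of 11 single arrays was left out. Sesn3, a sestrin induced by FoxO factors, had the smallest adjusted p among the 8 largest rises (6.98e-09), moving from between -3.14 and -2.67 to between -1.38 and -0.72. Ccdc89 and Spmap2, both known from testis, were among the 8 largest rises (3.44-fold and 3.35-fold) at low levels, where replicate 1 of the 30-day group stood far above the rest.

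Unseeded grafts changed in related ways over all probes but not in every list, and their change was not tested on its own here. Across the 20629 probes the change with ASCs and the change without them correlated with a Pearson's r of 0.54 and a Spearman's rho of 0.50, a description over probes, which are not independent. The sign was the same for 67.6% of all probes, for 88.4% of those that rose with ASCs and for 94.4% of those that fell. List medians without ASCs (with them in brackets) were 1.46 (0.64) for urothelium, 0.74 (0.60) for smooth muscle and -3.06 (-1.46) for neutrophils. They were -0.25 (0.35) for Hedgehog, -0.12 (0.51) for cholesterol and -0.16 (0.24) for growth factors. For macrophages they were -0.06 (-0.47), for T cells 0.01 (-0.46) and for cell cycle -0.64 (-0.03). Whether the change differed between the grafts was tested on the 32 arrays of both days. Each group lay on a slide of its own, so that slide cannot be told apart from graft and day in this test. The change differed for 301 probes (1.46%), with 270 (1.31%) higher and 31 (0.15%) lower with ASCs. The median difference over all probes was 0.10. The count was not stable, at 79 after normexp, 183 (130 higher and 53 lower) after quantile normalization and 166 to 507 with single arrays left out. Replicate 7 of BAM_7d had 86.1% of gene spots well above background, against 74.6 to 79.8% in the other 7 arrays of that group, and without it the count was 182. Of the 270, 207 had a change above 0 with ASCs and below 0 without them. Among named genes, 1.08% were higher and 0.165% lower with ASCs. No urothelial, smooth muscle or cell cycle gene was among them. Upk2 had a change of 1.83 with ASCs and of 3.95 without, and the difference of -2.13 ± 0.96 had an adjusted p of 0.139. For S100a8 the changes were -2.41 and -5.62, and the difference of 3.21 ± 0.82 had an adjusted p of 0.0157.

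Several genes with large differences had unlike 7-day levels. Hp stood at -1.87 ± 1.44 (SD, n = 8) at 7 days and -1.72 ± 0.72 at 30 days with ASCs, and at 1.34 ± 1.05 and -1.94 ± 0.50 without them. The means at 30 days differed by less than their SDs, and the difference of the changes was 3.43 ± 0.68 (SE, adjusted p = 0.00339). Nlrp12, an inhibitory NOD-like receptor of myeloid cells, and Fmod, fibromodulin, had changes of -2.83 and -2.28 without ASCs and of -0.53 and 0.28 with them, and the differences were 2.30 (adjusted p = 0.00958) and 2.56 (adjusted p = 0.00656). Both calls were lost when single arrays were left out and without replicates 1 and 2. Padi4, the histone-citrullinating enzyme of neutrophils, had a change of 0.73 with ASCs and of -1.41 without (difference 2.15, adjusted p = 0.00464), and Htr2a, a serotonin receptor, changes of 0.76 and -1.15 (difference 1.91, adjusted p = 0.0074, a call lost without replicates 1 and 2).

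Some matrix and vessel genes had the less negative change in seeded grafts. Fbn2 moved from 1.19 ± 0.72 to -0.85 ± 0.54 with ASCs and from 2.03 ± 0.38 to -2.57 ± 0.19 without (difference 2.56 ± 0.34, adjusted p = 0.00036), the difference with the smallest adjusted p of those named. Col4a1, a collagen of basement membranes, had changes of -0.56 with ASCs and -1.75 without (difference 1.19, adjusted p = 0.00334), and Col18a1, the source of endostatin, of -0.81 and -2.11 (difference 1.3, adjusted p = 0.00992). In the endothelial list 3 of 20 genes differed, Vwf (1.15, adjusted p = 0.00433), Plvap, a protein of endothelial fenestrae (0.85, adjusted p = 0.0015), and Aplnr (1.06, adjusted p = 0.00864), all with the more negative change in unseeded grafts. The call of Aplnr was lost under most alternatives. Lss, an enzyme of cholesterol synthesis, had changes of 0.39 and -0.62 (difference 1.00, adjusted p = 0.00334). Dhh, Desert hedgehog, made by Schwann cells and endothelium, had changes of -0.09 and -1.80 (difference 1.71, adjusted p = 0.00124), and Wnt1 of -0.14 and -1.03 (difference 0.89, adjusted p = 0.00678). Spmap2 was lower at 7 days with ASCs (-4.96 ± 0.22) than without (-2.12 ± 0.48), and its difference was 1.79 (adjusted p = 0.0011).

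**Figure D5:**
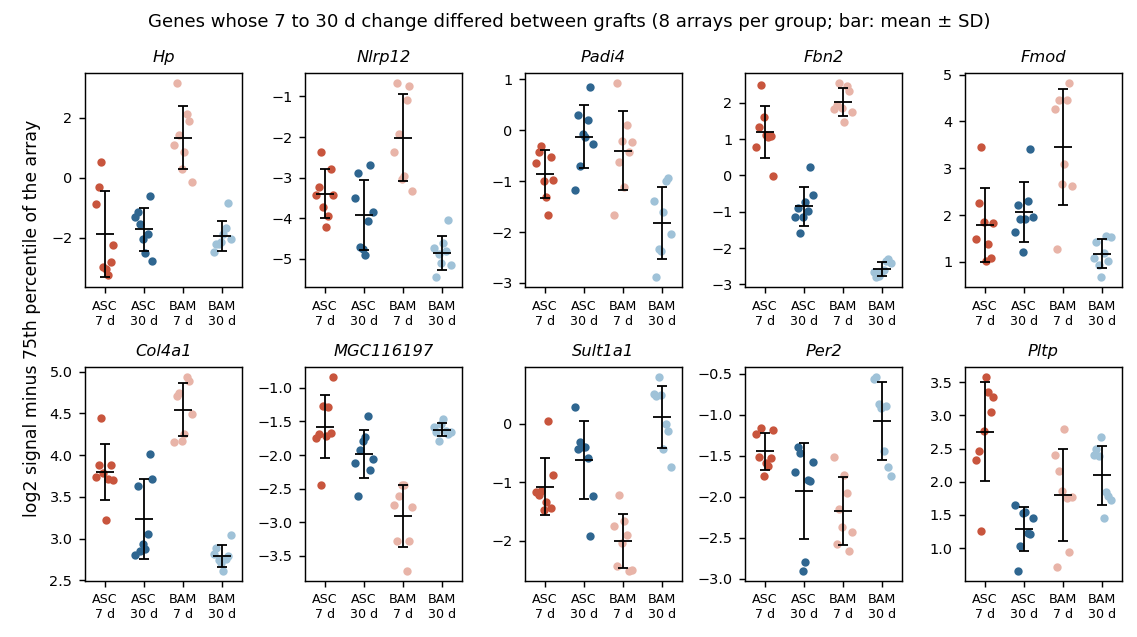
Level of 10 genes whose change from 7 to 30 days differed between the grafts (y axis, log2 signal relative to the array's 75th percentile), in each of the 8 arrays of the 4 groups with bars for mean ± SD (ASC: BAM seeded with ASCs, BAM: BAM alone). Hp, Nlrp12 and Fmod stand highest in BAM alone at 7 days, and Sult1a1 stands lowest there.

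In the opposite direction, a few genes had the higher change in unseeded grafts. Sult1a1, a phenol sulfotransferase, had changes of 0.45 and 2.12 (difference -1.67, adjusted p = 0.00759). Per2, a repressor of the circadian clock, had a change of -0.48 with ASCs and of 1.1 without (difference -1.58, adjusted p = 0.00288). Atp1b1, a subunit of the sodium pump, had changes of 0.26 and 1.80 (difference -1.54, adjusted p = 0.00975). MGC116197, an uncharacterised gene, had changes of -0.40 and 1.29 (difference -1.69, adjusted p = 0.000746), and Pltp, which fell with ASCs, had a change of 0.30 without (difference -1.77, adjusted p = 0.00796). The calls of Atp1b1, Pltp and Sult1a1 were lost when single arrays were left out.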

How the data were processed

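The study's authors extracted total RNA from the reconstructed bladder walls, labelled it with Cy3 and hybridised it to 1-colour arrays. Per the file headers, the deposited intensity values are the background-subtracted processed signals of Agilent Feature Extraction 12.0.1.1, 1 table per array, with 58717 gene spots, not yet normalized between arrays. The deposited value table of the series, which is on the linear scale of the signal, was used as an alternative after log2 transformation and the same scaling. In 3 of its columns for the 7-day group it holds the error of the processed signal in place of the signal.

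Here, spots flagged as outliers (0.70 to 1.06% of gene spots) and control spots were left out, log2 signals were set relative to the array's 75th percentile over non-control spots, and replicate spots were averaged. For a probe to count as well above background, a share of 0.5 of its spots had to be. Differences were fitted with limma 3.58.1 (lmFit, eBayes) in R 4.3.3 on the 16 arrays, and the difference between grafts on 32 arrays with the same probes, with p-values adjusted by the Benjamini-Hochberg method over all probes tested. Thresholds followed the study's methods. The number of arrays limits the precision. Of 30367 probes, 18758 were named through RefSeq accessions (GRCr8 table), 15715 genes. The fits were tested on simulated data.

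Named genes were the 8 largest rises and 8 largest falls that were measured, unsaturated and without overlap on all 16 arrays, up to 3 called genes each way per list, a fixed set of markers, and the 6 largest differences between grafts each way. Further called members of lists are named where few, and some genes are not reported here. Members and lists were chosen with earlier results of these data known. Alternatives covered background correction, scaling, filters, arrays left out and the fitted samples.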

Additional observations from a re-analysis of the deposited data

Results flagged for a closer look

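Of 262 sets of 8 arrays checked, 1 per named gene and day, 28 held an array whose level stood apart from the other 7 by the Dixon criterion, and chance alone gives about 1 in 20. Replicate 3 of the 7-day group accounted for 10 of the 28 and replicate 1 of the 30-day group for 10. In replicate 1 of the 30-day group this held for Cavin1 (-1.70), Ccdc89 (-1.72), Spmap2 (-1.68), L1cam (-1.56), Timp3 (-1.77), Il11 (-1.43), Aplnr (-2.31), Ptch1 (-0.73), Sdhc (1.46), Cd34 (-2.87). In replicate 2 of the 30-day group this held for Sfrp4 (-0.93). In replicate 6 of the 30-day group this held for Slc7a7 (-4.52). In replicate 7 of the 30-day group this held for Synm (1.97), Myh11 (3.50). In replicate 3 of the 7-day group this held for Fat2 (-6.56), Wnt7b (-5.87), Shh (-7.92), Vcan (2.24), Ccn4 (1.04), Bmp5 (-5.59), Cox5a (2.94), Actg2 (4.46), Bmp4 (-1.17), Igf1 (5.70). In replicate 6 of the 7-day group this held for Cavin1 (-4.19), Sult1a1 (0.05). In replicate 8 of the 7-day group this held for Kcnma1 (-3.13), Il11 (-3.48). Levels are log2 signals relative to the 75th percentile of the array. The part of these arrays in the results was not tested beyond the values given without replicates 1 and 2 and with each array left out.

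The change from 7 to 30 days differed between seeded and unseeded grafts for 14 of the genes named by rule, by the limma test of the difference, with adjusted p below 0.01, among 143 genes in all. It was higher with ASCs for Spmap2 (1.79), Fbn2 (2.56), Aplnr (1.06), Col4a1 (1.19), Hp (3.43), Fmod (2.56), Nlrp12 (2.30), Padi4 (2.15), Htr2a (1.91) on the log2 scale. It was lower with ASCs for Pltp (-1.77), MGC116197 (-1.69), Sult1a1 (-1.67), Per2 (-1.58), Atp1b1 (-1.54). As each group lay on a slide of its own, slide cannot be told apart from graft and day here.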

How the results depend on the processing

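None of the 87 named genes called between the days changed direction in any alternative or with any single array left out, and 65 stayed called with each array left out in turn. The 87 had passed the test on these same arrays, which made a change of direction unlikely in advance. Of the 87, 75 stayed called after quantile normalization, 67 with arrays centred on their median, 78 after normexp background correction, 70 in the 2-way analysis of variance, 71 in the fit of all 64 arrays and 71 without replicates 1 and 2 of the 30-day group. With single arrays left out, there were 1945 to 2350 DEGs (1424 to 1791 higher, 460 to 721 lower) in place of 2288. Alternatives gave 1403 DEGs (968 higher) with normexp, 965 higher and 1027 lower with quantile normalization, 835 and 1488 with arrays centred on their median, and 951 lower relative to the median change. They gave 4748 (3116 and 1632) by adjusted p alone, 755 (611 and 144) at 2-fold, and 1042 (660 higher) with 1 probe per gene. The cause of these shifts was not tested, apart from thresholds and the number of probes.

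The difference between grafts was less stable. Its 301 calls became 166 to 507 with single arrays left out (154 to 442 higher, 12 to 80 lower). By over 1.5 times it moved without seeded 7-day replicate 8 (166), seeded 30-day replicate 2 (191), unseeded 7-day replicates 2 (466), 6 (174) and 7 (182) and unseeded 30-day replicates 3 (182), 4 (184) and 7 (507). The calls were 79 (70 higher, 9 lower) with normexp, 183 (130 and 53) with quantile normalization, 667 (558 and 109) with array weights, 169 (150 and 19) at 2-fold, 1838 (1454 and 384) at unadjusted p, and 125 (107 and 18) with 1 probe per gene. Without replicates 1 and 2 they were 190 (169 higher), or 167 (149 and 18) with probes detected on all remaining arrays. Centring on the array median gave 140 higher and 65 lower, no filter 17 lower, and adjusted p alone 47 lower. The deposited value table, log2 transformed here and with 3 columns that hold the signal error, gave 177 higher.

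Separate groups of rats were sacrificed at each day, so that no rat gave samples of both days. Of the same-numbered pairs, 3 of 8 correlated above 0.1 in their deviations, and 2 of 8 arrays correlated best with their own number. Whether same-numbered samples shared anything else was not tested. With the replicate number as a block there were 2021 DEGs (1556 and 465) and 374 differences between grafts (322 and 52).

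Called genes were chosen for a clear change on these arrays, so that a turn of sign was likely only among the others. Only genes that were not called turned sign. With arrays centred on their median this held for Lcn2 (-0.0203), Dcn (-0.1096), Ccl2 (-0.2054), Hp (-0.0910), Ldha (-0.0556), Cd68 (-0.0761), Actg2 (-0.0694) and Fos (-0.1571). After quantile normalization it held for Ccl2 (-0.0044), with the percentile over detected probes for Ccl2 (-0.0011), and relative to the median change for Ccl2 (-0.0653) and Fos (-0.0170). Without replicates 1 and 2, with either filter, it held for Lcn2 (-0.0899), Timp1 (0.0597), Hp (-0.0112) and Fos (-0.0151). Adipoq turned with normexp (0.0694) and array weights (0.1482), and Timp1 with array weights (0.0663). With single arrays left out, changes ran from -0.5960 to 0.6071 for Adipoq, -0.0763 to 0.1643 for Ccl2, -0.0545 to 0.1913 for Fos, -0.0451 to 0.4923 for Hp, -0.2625 to 0.7892 for Lcn2 and -0.1445 to 0.0654 for Timp1.

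The change relative to the median, the filter on remaining arrays and the omission of unseeded arrays were chosen after seeing the data. Dim and saturated probes limit what can be read at both ends of the scale.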

Other observations

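Genes of the circadian clock were read after the difference in Per2 was seen. Of 15 clock genes measured, Bhlhe40, a repressor in the clock loop, rose from between -3.49 and -2.34 to between -2.36 and -1.48 (0.89 ± 0.17, adjusted p = 0.000744), and Per2 was the only one whose change differed between the grafts. Bmal1 had a change of -0.20 ± 0.17 (adjusted p = 0.372) and Nr1d1 of 0.76 ± 0.40 (adjusted p = 0.143). The hour of sacrifice is not given in the sources used here.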
